A study of Mus musculus with 6 samples.

Results

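The genes examined here are 9 mouse genes whose human counterparts are linked to polycystic disease of the liver or kidney: Pkhd1, Pkd1, Pkd2, Cys1, Dzip1l, Bicc1, Ganab, Prkcsh and Sec63. They were taken by symbol from a table of 25302 genes, and all 9 were found there and passed the filter on low values. RNA was sequenced from biliary epithelial cells (BEC), the cells that line the bile ducts, from mouse liver. The 3 Control samples had the genotype Sox9fl/fl and the 3 Sox9cKO samples had Sox9fl/fl:AlbCre+/-. In both groups the gene of the transcription factor Sox9 is floxed, and only Sox9cKO carries AlbCre, a Cre recombinase driven by the albumin promoter, so the presence of Cre and the loss of Sox9 cannot be told apart. The labels give no age, sex or count of animals, and p-values measure the spread between these samples.

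The bile duct epithelium carries primary cilia that face the lumen, and several of these genes encode proteins of that organelle. Fibrocystin (Pkhd1), the polycystins (Pkd1 and Pkd2), cystin (Cys1) and Dzip1l, a transition zone protein, act at or near the cilium, and their loss is known to cause cysts of kidney tubules, bile ducts or both. Ganab, Prkcsh and Sec63 act in the endoplasmic reticulum, where glycoproteins such as the polycystins are folded and processed. Bicc1 encodes an RNA-binding protein that is known to act on Pkd2 and adenylate cyclase transcripts.

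The samples held between 11883496 and 16191990 reads assigned to genes. All values are normalized reads (reads over the sample's size factor), changes are in log2 units of Sox9cKO minus Control with the standard error (SE) from the model, and adjusted p-values are limma's with Benjamini-Hochberg adjustment unless another tool is named. A second p, called paired, is from limma with the replicate number entered as a blocking term. Sox9 was lower in every sample labelled Sox9cKO (3165 to 3363) than in every Control sample (6043 to 6293), a change of -0.91 (adjusted p = 0.00501). All 6 listed biliary markers were detected in every sample, with summed levels of 93238 to 134541 in Control and 80968 to 116733 in Sox9cKO. Of these 6, limma called 1 higher and 0 lower in Sox9cKO, beside 2.97% of all genes. With the replicate block it called 1 higher and 2 lower, beside 8.05%, so the sum covers changes in both directions. The 6 endothelial markers were detected in every sample too, and their sum was uneven within groups, from 1345 to 29711 in Control and from 4989 to 30361 in Sox9cKO. It was lowest in replicate 3 of each group and highest in replicate 2. In each same-numbered pair the sum was higher in Sox9cKO (from 9238 to 22813, from 29711 to 30361 and from 1345 to 4989). None of these 6 genes was called by limma, beside 2.97% of all genes. With the replicate block Vwf was called higher (change 0.72, adjusted p = 0.208, paired 0.042), beside 8.05% of all genes. All 6 had an unadjusted paired p under 0.05, but the share of all genes under it was not computed, and the pairing rests on these same data. The 5 leukocyte and erythroid markers in the table summed to at most 860 in Control and 1646 in Sox9cKO, and the 6 mesenchymal markers to at most 825 and 1917. Most of the leukocyte and erythroid sum was Csf1r (means 761 and 1450), called higher in Sox9cKO (change 0.92, adjusted p = 0.0142). Of the 4 markers tested in that list it was the only 1 above 0, and Ptprc was lower (means 30.9 and 10.1, adjusted p = 0.266). The 6 hepatocyte markers summed to 20877 to 33054 in Control and 39423 to 68946 in Sox9cKO. This difference came from Apob (mean 2712 in Control and 22111 in Sox9cKO, the 1 gene of the 6 that was called, adjusted p = 0.00383) and Alb (21337 and 29636), while the means of Ttr were 1367 and 1051, of Cps1 52.6 and 98.9, of Cyp2e1 66.5 and 69.9 and of Cyp3a11 56.3 and 60.6. In such bulk samples, fewer cells of a type and less RNA per cell cannot be told apart.

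Pkhd1 was the member with the lowest levels in Sox9cKO relative to Control, and its promoter is shown together with those of Cys1, also lower, and Prkcsh, higher in Sox9cKO. The sequences are RefSeq promoters on GRCm38.p6, an older build than the GRCm39 named for the deposited data. Each reads 5′ to 3′ on the gene's strand. Capitals mark each CpG, the dinucleotide that is frequent in CpG island promoters, and matches to ACAAT, a core bound by SOX proteins such as SOX9, searched on both strands. The stretches are chr1:20618083-20618202 (minus strand) for Pkhd1, chr12:24681896-24682015 (minus strand) for Cys1 and chr9:22002868-22002987 (plus strand) for Prkcsh.
Pkhd1: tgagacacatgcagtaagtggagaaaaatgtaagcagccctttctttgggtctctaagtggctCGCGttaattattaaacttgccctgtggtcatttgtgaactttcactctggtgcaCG
Cys1: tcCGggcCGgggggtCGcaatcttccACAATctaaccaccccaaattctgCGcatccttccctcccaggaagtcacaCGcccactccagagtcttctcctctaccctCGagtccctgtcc
Prkcsh: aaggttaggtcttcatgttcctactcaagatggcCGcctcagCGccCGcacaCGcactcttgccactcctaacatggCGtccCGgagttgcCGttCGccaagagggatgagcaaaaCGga

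Of the 9 genes, all but Bicc1 had a promoter window of 300 bases (250 before and 50 after the start site) in RefSeq. The stretches shown, 120 bases each, held 3 CpG in Pkhd1, 6 in Cys1 and 9 in Prkcsh. They lie at different distances upstream of the start site, and that of Cys1 includes its ACAAT match. The counts therefore describe the printed letters only and do not compare the promoters of these genes. The SOX core ACAAT occurred once among the members, in Cys1, from 194 to 190 bases upstream of the start site, and in 31% of all 32851 windows. The Pkhd1 window was the poorest in G and C among the members (43.3%). The windows of the endoplasmic reticulum genes Prkcsh and Ganab were rich in CpG, with observed over expected ratios of 1.15 and 1.08, above those of 99% and 97.4% of all windows. That of Sec63, in the same group, was 0.735, above 73.7% of all windows. These matches describe letters and not bound sites.

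Levels of different genes were set side by side per kilobase of exon. Pkhd1 had the highest level in Control, 1510 ± 239 normalized reads per kilobase (SD, n = 3), which placed it in the top 1.11% of 17013 genes with a known length. Bicc1 followed at 957 ± 205 per kilobase. Below them came Pkd2 (331 ± 107), Ganab (249 ± 18.1), Prkcsh (238, range 227 to 246), Sec63 (202 ± 13.6), Dzip1l (85.4 ± 15.4), Pkd1 (84.4 ± 1.67) and Cys1 (71.3 ± 19.8), in reads per kilobase. Among the neighbours in this order, the Control ranges overlapped for Pkd2 and Ganab, Ganab and Prkcsh, Dzip1l and Pkd1, and Pkd1 and Cys1, and those of the other neighbours did not. In Sox9cKO, Bicc1 (1175 ± 106 per kilobase) had a higher mean than Pkhd1 (956 ± 269), with overlapping ranges.

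**Figure D1:**
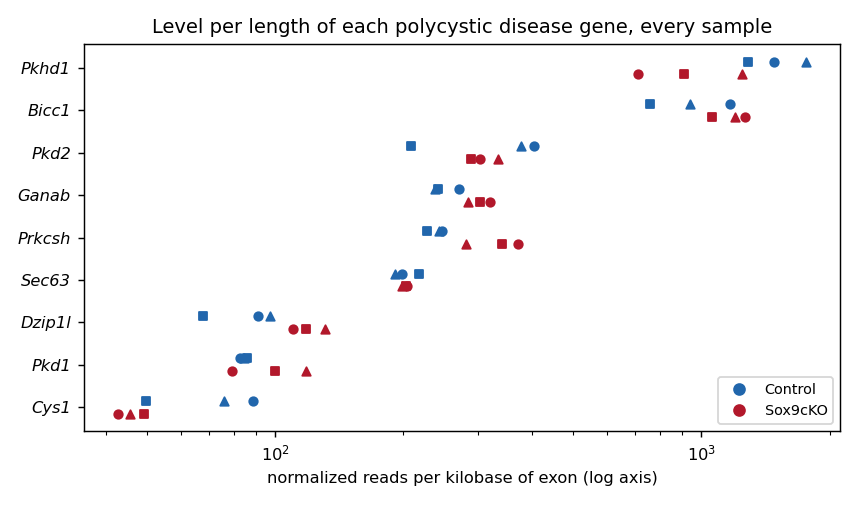
Normalized reads per kilobase of exon (log axis) of each polycystic disease gene in every sample, ordered by the Control mean. Circles, squares and triangles are replicates 1, 2 and 3 of each group. Pkhd1 and Bicc1 lie above the other 7 genes in all samples, and the Sox9cKO values of Pkhd1 (712 to 1245) lie below its Control values (1286 to 1761).

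The comparison of Sox9cKO with Control asked which of these genes differ with the Sox9 genotype. None of the 9 passed the threshold in limma (Benjamini-Hochberg adjusted p between 0.132 and 0.998), beside 2.97% of the 17153 genes tested, and edgeR's and DESeq2's tests on the recovered reads called none of them either, beside 2.86% and 7.08% of all genes. An unadjusted limma p under 0.05 was found for 5 members (Pkhd1, Cys1, Dzip1l, Prkcsh and Ganab), beside 17.8% of all genes. Same-numbered samples of the groups moved together, and once the number was entered as a block, limma called 1 of 9, Pkhd1, beside 8.05% of all genes, and edgeR called the same gene, beside 6.76%. The groups did not overlap for 5 of 9 genes, beside 24.2% of all genes. Of these, Dzip1l, Prkcsh and Ganab were higher in all Sox9cKO samples (13.4% of all genes) and Pkhd1 and Cys1 lower (10.8% of all genes). The median log2 fold change of the 9 was 0.21, beside 0.036 over all genes tested, and with quantile normalization it was 0.11, beside -0.031.

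**Figure D2:**
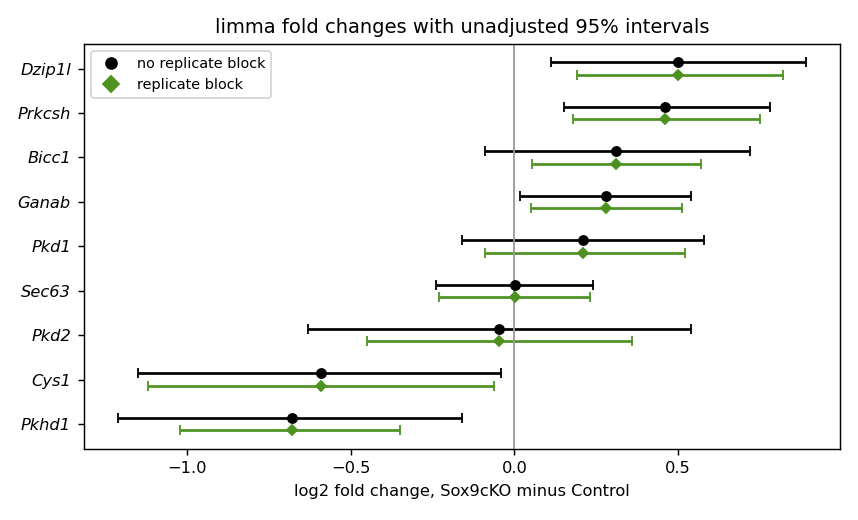
limma log2 fold changes (Sox9cKO minus Control) of the 9 genes with unadjusted 95% confidence intervals, without (black circles) and with (green diamonds) the replicate number as a block. Pkhd1 and Cys1 lie below 0 and Dzip1l, Prkcsh and Ganab above 0 in both fits, while the intervals of Pkd1, Pkd2 and Sec63 include 0 in both.

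Among the genes of the cilium, Pkhd1 (ENSMUSG00000043760), which encodes fibrocystin, a large single-pass membrane protein mutated in recessive polycystic kidney disease with congenital hepatic fibrosis, was lower in Sox9cKO. In the order of replicates 1 to 3, Control had 21200, 18408 and 25204 normalized reads and Sox9cKO had 10183, 13047 and 17816. Every Sox9cKO sample lay below every Control sample, and the means were 13682 ± 3856 in Sox9cKO and 21604 ± 3416 in Control (SD, n = 3), a share of 63.3%. This change of -0.68 (SE 0.22) missed the threshold (adjusted p = 0.168). With the replicate block the SE was 0.14 and the change passed it (paired adjusted p = 0.0351), and the differences within the same-numbered pairs were -1.06, -0.50 and -0.50 on the log2 scale. edgeR with the block gave an adjusted p of 0.0405, and DESeq2 without it 0.0524.

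In each group Pkhd1 was highest in replicate 3, the sample with the lowest endothelial sum. With the endothelial score as a covariate, an alternative chosen after seeing the data, the change of Pkhd1 was -0.52 (adjusted p = 0.162), and none of the 9 genes was called, beside 3.59% of all genes. Control replicate 2, with the highest endothelial sum of its group, was the lowest Control sample for 6 of the 9 genes. The share of all genes lowest in that sample was not computed, so the count cannot be read as a trait of these genes. In Sox9cKO, replicate 2 also had the highest endothelial sum, and was lowest for Pkd2 and Bicc1 only and highest for Cys1. Pkhd1 had 10183 normalized reads in Sox9cKO replicate 1, its lowest sample, and 13047 in replicate 2. The cause of these orders of samples was not tested. Leaving out 1 sample at a time moved the Pkhd1 change between -0.89 and -0.49. Exons of the antisense gene 4930486I03Rik cover 1.45% of the Pkhd1 exon length, and that gene had means of 15.4 in Control and 7.04 in Sox9cKO, far below the reads of Pkhd1.

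Cys1 (ENSMUSG00000062563) encodes cystin, a lipid-anchored protein of the ciliary membrane whose loss gives the cpk mouse. Control had 261, 147 and 224 normalized reads and Sox9cKO had 126, 146 and 135, in the order of replicates. The groups did not overlap, but Control replicate 2 and Sox9cKO replicate 2 were almost level. The change of -0.59 (SE 0.24) was not called (adjusted p = 0.248, paired 0.152). Cys1 was the member with the fewest reads (119 to 311 per sample), where counting error alone is 9.2% at the fewest. Without Control replicate 2 it was -0.83 and without Control replicate 1 -0.42, not called in either (adjusted p = 0.0947 and 0.543).

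Dzip1l (ENSMUSG00000037784), whose product sits at the ciliary transition zone and is known to be needed for polycystins to enter the cilium, went the other way. Its normalized reads were 727, 542 and 775 in Control and 878, 942 and 1048 in Sox9cKO. All Sox9cKO samples were above all Control samples, with a mean at 140% of Control. A change of 0.50 (SE 0.16) did not pass the threshold (adjusted p = 0.173, paired 0.0679). With the endothelial covariate it was 0.62 (adjusted p = 0.0542).

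The polycystins form a receptor-channel complex, Pkd1 giving the large receptor-like subunit and Pkd2 the cation channel. Pkd1 (ENSMUSG00000032855) had 1439, 1497 and 1472 normalized reads in Control and 1378, 1740 and 2059 in Sox9cKO. Control was tight (coefficient of variation 1.98%), while the Sox9cKO samples spread on both sides of it (19.8%). The estimated change was 0.21, with an unadjusted 95% interval from -0.16 to 0.58 (adjusted p = 0.543). It was 0.076 without Sox9cKO replicate 3, 0.37 without Sox9cKO replicate 1 and 0.11 with quantile normalization. Exons of Tsc2 on the opposite strand cover 3.98% of the Pkd1 exon length, and whether counting used the strand is not given in the sources used here.

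Pkd2 (ENSMUSG00000034462) had 4122, 2117 and 3848 normalized reads in Control and 3070, 2924 and 3399 in Sox9cKO. Here the spread was in Control, where replicate 2 stood below all other samples, and the Sox9cKO values lay inside the Control range. The estimated change was -0.046, with a 95% interval from -0.63 to 0.54 (adjusted p = 0.952). Without Control replicate 2 it was -0.35. Per kilobase, Pkd2 exceeded Pkd1 in every sample, by 4.91, 2.42 and 4.48 times in Control and by 3.82, 2.88 and 2.83 times in Sox9cKO, and these ratios overlapped between the groups.

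Bicc1 (ENSMUSG00000014329), the RNA-binding member, had 8698, 5650 and 7012 normalized reads in Control and 9426, 7885 and 8924 in Sox9cKO. The groups overlapped, since Control replicate 1 lay above Sox9cKO replicate 2. Within each same-numbered pair the Sox9cKO sample was higher, by 0.12, 0.48 and 0.35 on the log2 scale. The group change of 0.31 was not called (adjusted p = 0.402, paired 0.128). It was 0.16 without Control replicate 2 and 0.47 without Control replicate 1. An antisense gene, 4930533K18Rik, covers 4.69% of the Bicc1 exon length and had means of 21.8 in Control and 6.82 in Sox9cKO.

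**Figure D3:**
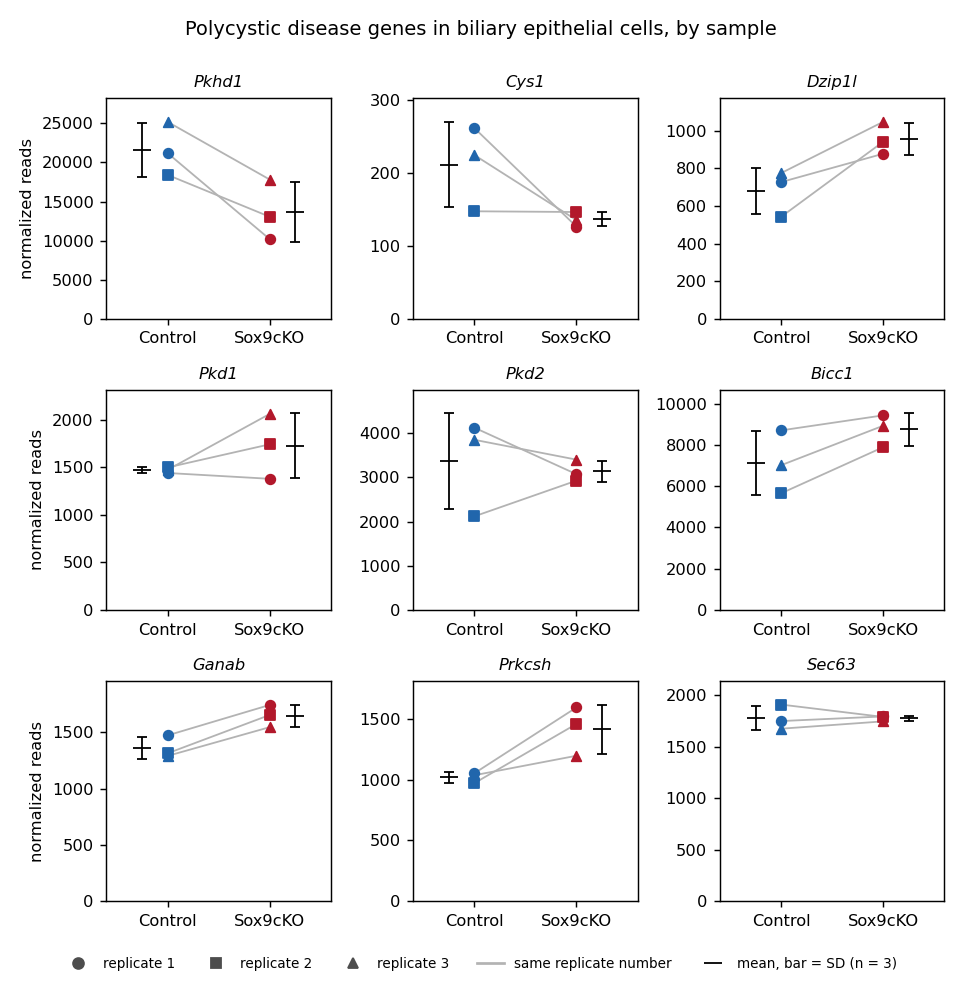
Normalized reads of the 9 polycystic disease genes in each Control (blue) and Sox9cKO (red) sample, with axes from 0. Grey lines join samples with the same replicate number, and black bars show the mean and SD of 3 samples. Pkhd1 and Cys1 are lower and Dzip1l, Ganab and Prkcsh higher in Sox9cKO without overlap of the groups.

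In the endoplasmic reticulum group, Prkcsh and Ganab encode the beta and alpha subunits of glucosidase II, the enzyme that trims glucose from new N-glycans, and their loss is known to cause polycystic liver disease. Prkcsh (ENSMUSG00000003402) had the smallest p of the 9 in limma without the block (unadjusted p = 0.0102). With the block Pkhd1 had a smaller p (0.00211, beside 0.00643 for Prkcsh). The normalized reads of Prkcsh were 1051, 970 and 1035 in Control and 1591, 1456 and 1195 in Sox9cKO. The 3 Control samples lay close together and the Sox9cKO samples were all above them, with a mean of 139% of Control. The change of 0.46 (SE 0.13) was not called in either fit (adjusted p = 0.132, paired 0.0637).

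Ganab (ENSMUSG00000071650) had 1472, 1313 and 1290 normalized reads in Control and 1742, 1653 and 1545 in Sox9cKO. Again no Sox9cKO sample fell within the Control range, with a mean of 121% of Control. A change of 0.28 (SE 0.11) was not called (adjusted p = 0.250, paired 0.125), and was 0.18 with quantile normalization. Per kilobase, the ratio of Ganab to Prkcsh was 1.10, 1.06 and 0.978 in Control and 0.858, 0.890 and 1.01 in Sox9cKO, and these ratios overlapped between the groups.

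Sec63 (ENSMUSG00000019802) encodes a membrane protein that works with the Sec61 channel and the chaperone BiP in protein import into the endoplasmic reticulum. Its normalized reads were 1748, 1908 and 1674 in Control and 1793, 1788 and 1745 in Sox9cKO. The Sox9cKO values lay within the Control range. The estimated change was 0.00085, with an unadjusted 95% interval from -0.24 to 0.24 (adjusted p = 0.998).

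Related genes were described from lists. Of 10 other genes of polycystic liver and kidney disease, none was called, beside 2.97% of all genes, and 7 (70%) had a log2 fold change above 0, beside 54.2% of all genes. Their median was 0.24, or 0.11 with quantile normalization. Those with the smallest p were Sec61a1 (from 1679 ± 228 to 2186 ± 289) and Sec61b (from 78.7 ± 10.6 to 118 ± 34.3), subunits of the translocation channel, and the chaperone gene Dnajb11 (from 480 ± 32.5 to 604 ± 99.6), as means of normalized reads ± SD with n = 3 in Control and in Sox9cKO. In all 3 of these genes, chosen by p, the groups did not overlap, with adjusted p-values of 0.245, 0.314 and 0.331. Over the whole list the groups did not overlap for 5 of 10, beside 24.2% of all genes. All 5 were higher in Sox9cKO, beside 13.4% of all genes. Of 8 genes of the translocon and calnexin cycle, none was called, beside 2.97% of all genes. Their changes ran from -0.22 to 0.40, with a median of 0.12. The smallest p-values belonged to Uggt1, the folding sensor that adds glucose back, Pdia3, a disulfide isomerase, and Mogs, which is glucosidase I. The log2 fold changes of these 3 were 0.36, 0.31 and 0.40, with limma adjusted p-values of 0.155, 0.233 and 0.303. With quantile normalization 4 of the 8 listed genes, in place of 6, were above 0, with a median of 0.014.

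Paralogs of the polycystins and fibrocystin were scarce. Of 7 listed, 6 were in the table and 3 passed the filter, none called, beside 2.97% of all genes. The levels of Pkhd1l1 (46.6 ± 23.6 in Control and 76.5 ± 26.7 in Sox9cKO), Pkd1l3 (31.0 ± 9.01 and 21.6 ± 2.73) and Pkd2l2 (17.4 ± 6.19 and 8.68 ± 8.02) overlapped between the groups (normalized reads, SD, n = 3). Of 5 Bicc1 partners and genes of the inversin compartment, none was called, beside the same share of all genes. Nek7 and Anks3 had changes of -0.22 and 0.11 (adjusted p = 0.521 and 0.729). Anks3 was at -0.019 with quantile normalization.

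Calcium and cAMP are messengers of fluid secretion and cyst growth in ducts. Of 11 listed genes of these pathways, 9 were tested and limma called 1, Adcy5, beside 2.97% of all genes, or 3 with the replicate block, beside 8.05%. Adcy5, a calcium-inhibited adenylate cyclase, had 29.4, 42.7 and 33.4 normalized reads in Control and 214, 197 and 143 in Sox9cKO. It rose by 2.35 (SE 0.25; adjusted p = 0.00501), with all pairs in that direction. It was called in all 17 alternatives (adjusted p up to 0.0288).

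Pde4c, a cAMP phosphodiesterase of the cilium, had 449, 1030 and 490 normalized reads in Control and 235, 405 and 256 in Sox9cKO. Replicate 2 was the highest of each group, and all Sox9cKO samples lay below all Control samples. The change of -1.07 was called in the paired fit (adjusted p = 0.175, paired 0.00723). Itpr3, the calcium release channel at the apical pole of cholangiocytes, had 3772, 3278 and 4375 reads in Control and 6567, 5175 and 6734 in Sox9cKO. It was 0.69 higher, and called in the paired fit (adjusted p = 0.0699, paired 0.00937). Trpv4, a ciliary calcium channel, was at -0.36 (adjusted p = 0.291, paired 0.198), with groups that did not overlap. Glis2, a zinc finger gene of nephronophthisis, was at 0.19 (adjusted p = 0.503).

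**Figure D4:**
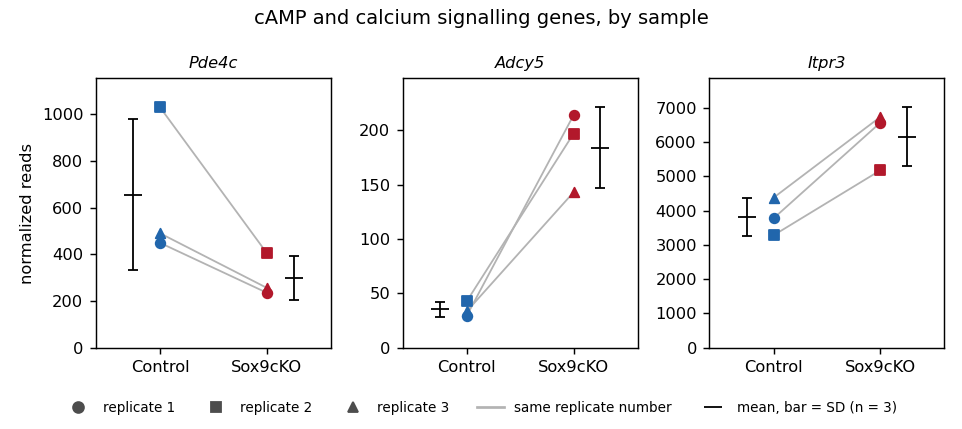
Normalized reads of Pde4c, Adcy5 and Itpr3 in each Control (blue) and Sox9cKO (red) sample, with axes from 0. Grey lines join samples with the same replicate number, and black bars show the mean and SD of 3 samples. Pde4c is lower and Adcy5 and Itpr3 higher in Sox9cKO in all 3 pairs.

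The genes whose pattern over the 6 samples was nearest to that of Prkcsh, by the root mean square difference of log2 values centred on each gene's mean, were Rbck1 (0.0379), Pdia6 (0.0546), Trim8 (0.0557), Psmd13 (0.0559) and Psmc1 (0.0563), among 13743 genes. Pdia6 encodes a disulfide isomerase of the endoplasmic reticulum, and Psmd13 and Psmc1 encode proteasome subunits. For Pkhd1, added after its values were seen, the nearest were Osbpl3 (0.0672), Usp49 (0.0708), Jag2 (0.0808), Coq3 (0.0837) and Tcte2 (0.0846). By the same measure Sox9 ranked 628 for Pkhd1. The measure includes the difference between the groups, so this rank partly restates that both genes were lower in Sox9cKO.

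**Figure D5:**
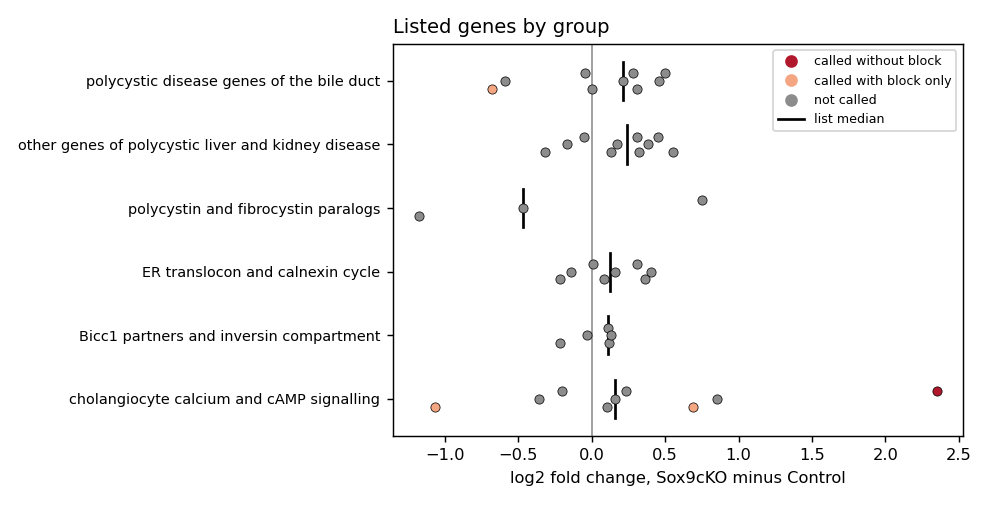
log2 fold changes (Sox9cKO minus Control, limma) of the tested genes of 6 lists, with the list median as a black bar. Dark red marks genes called without the replicate block, light orange genes called only with it, and grey genes not called. Adcy5 at 2.35 is the 1 gene called without the block, and Pkhd1, Pde4c and Itpr3 are called with it.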

How the data were processed

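Bulk RNA sequencing of 6 mouse samples was analysed. Per the labels' protocols, total RNA was depleted of ribosomal RNA and made into stranded libraries with molecular identifiers. The submitters' processing notes name DESeq2 1.36.0 and GRCm39. The aligner, the counter, the annotation and the use of the identifiers are not given in the sources used here. The authors deposited a signal per gene, namely gene counts divided by 1 factor per sample (0.868 to 1.19). Whole reads were recovered from 100% of the values (tolerance 0.001 reads) for the count tests.

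The number in each sample title identified its column. Genes averaging at least 10 normalized reads entered the test on log2(value + 1) with limma 3.58.1 in R 4.3.3 (lmFit, eBayes with a trend), two-sided, with Benjamini-Hochberg adjustment over all 17153 genes and a threshold of 0.05. Such fold changes understate those of low genes. The fits were tested on simulated data.

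Same-numbered samples deviated together, with correlations of 0.207, 0.472 and 0.542 across genes, so the replicate number in the titles was taken to pair them. Samples with unlike numbers had correlations from -0.437 to 0.048. The labels state no pairing, so it rests on the same data that the paired fits test. Alternatives used edgeR 4.0.16, DESeq2 1.42.0, other scalings, pseudocounts and filters, and each sample left out. Exon lengths came from GENCODE M21 on GRCm38, used for lengths and exon overlaps only (24815 rows matched).

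Named genes were the members, Sox9, and from each list the called genes and at most 3 more by p, with the 5 genes most like the member of smallest p. Some listed genes are not reported here. Genes outside this rule are named as such or as overlapping genes. The members and lists were chosen with earlier results of these data known.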

Additional observations from a re-analysis of the deposited data

How the results depend on the processing

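Sox9 stayed called under 10 alternatives, in fits that left out each of 6 samples in turn, and with the endothelial covariate, which was chosen after seeing the data. The number of called genes was 510 in limma, 1381 with the replicate block, 1160 with edgeR and the replicate block, 1214 with DESeq2, and 200 to 389 with 1 sample left out. Of the polycystic disease genes, 1 (Pkhd1) was called with the replicate block in limma and 1 with it in edgeR. None was called in the other alternatives run, the fits with 1 sample left out (0 to 0) and the endothelial covariate included. In limma the block changed the call of Pkhd1, Pde4c, Itpr3 and Vwf, and of no other gene named here. In edgeR it also changed that of 4930533K18Rik (adjusted p = 0.0736 without and 0.0457 with the block). Sec63 had no stable sign: its log2 fold change was -0.098 with quantile normalization, -0.046 with edgeR, -0.044 with edgeR and the block, -0.040 with DESeq2, -0.038 with the endothelial covariate and -0.041 to 0.053 with 1 sample left out. Pkd2 was at 0.12 with the endothelial covariate and -0.35 to 0.13 with 1 sample left out. Anks3 was at -0.019 with quantile normalization. The other members kept their sign. Why the settings differ was not tested. At a minimum mean of 50, Pkd1l3 and Pkd2l2 were filtered out. Depth limits Cys1 most. The intervals given are limma's and rest on the spread between samples.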

Other observations

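Tsc2, which lies beside Pkd1 on the opposite strand and whose human counterpart is deleted together with PKD1 in some patients, was named after its values were seen. Its normalized reads were 1104, 982 and 1020 in Control and 1422, 1293 and 1440 in Sox9cKO. All Sox9cKO samples were higher than all Control samples, a log2 difference of 0.42 (adjusted p = 0.104 with limma, and 0.0508 in the paired fit). Pkd1 itself overlapped between the groups.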
